A study of Mus musculus with 7 samples.

Results

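The genes described here lie within 10 Mb of Lck on mouse chromosome 4, from base 119225614 to base 139225673 of the mm9 assembly. Within that window they were taken by position, as every gene name with a probe of the array inside it. The window itself was chosen with earlier results of these data known. Lck itself, Fgr, Stmn1, Snhg3, Snhg12, the C1q genes, Id3, Runx3 and genes named Trim or Rab were left out. This gave 476 gene names with 856 probes, of 34797 names and 55681 probes on the array. Of the 476 names, 307 were measured in these cells and 169 were too dim, 120 of the latter on every array.

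The cells were naive CD8 T cells (CD8b+, CD44low) sorted from lymph nodes of mice that carried the OT-1 T cell receptor (OT-1het) and lacked Rag (Rag-/-), which leaves the transgenic receptor as the only one made. The 3 WT samples came from such mice with their own Lck. The 4 Lck-off samples came from OT-1het, Rag-/-, Lck-/- mice whose knocked-in Lck expression depended on doxycycline, which was withheld from the diet for 7 days. No Lck-/- sample still on doxycycline is in the comparison, so genotype, diet and loss of Lck cannot be told apart. Whether each sample came from a separate animal is not stated beyond the term biological replicate, so p-values measure the spread between these samples, and the strain history of both groups and the place of the inducible Lck copy are not in the sources used. All 8 markers of naive CD8 T cells that were looked up were measured on the arrays, and none of them passed the test between the groups.

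Lck is the Src family kinase that starts signalling by phosphorylating the CD3 and zeta chains beside the T cell receptor. Its neighbours on chromosome 4 have no common function: they include a histone deacetylase, translation factors, actin regulators, transcription factors of the cell cycle and genes best known from brain or skin. Genes that lie close together on a chromosome are inherited together, and neighbours can also share regulatory DNA.

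Several results below turn on single probes, and the start of each probe of Iqcc, Hdac1 and Gpn2 is shown here because probes of these genes gave different answers. Each array probe is 60 bases long. Given are its first 30 bases, 5′ to 3′ as the array files give them, with no base set apart by capitals, from the lowest to the highest transcript position. In mm9 the Iqcc probes lie in chr4:129292625-129295834 and those of Hdac1 in chr4:129193374-129193775, both on the minus strand, and those of Gpn2 in chr4:133145692-133147622 on the plus strand; exon and UTR annotation was not used here.
Iqcc, transcript base 125: cgagccgagtatgaggcaattgtacaagag
Iqcc, transcript base 2081: atagcgaatagcgtgtaccccctcctcata
Iqcc, transcript base 2324: tttggacagatttgtgatcaaggaaaacca
Hdac1, transcript base 1543: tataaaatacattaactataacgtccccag
Hdac1, transcript base 1732: tgttaaactttttaggaggggtctgggtct
Hdac1, transcript base 1885: gtggaggttgatagcctagcttcctttttg
Gpn2, transcript base 825: gcatccagcgagtcttacaggctgtggata
Gpn2, transcript base 1123: ttctagagaagaagccacgcatagcaccct
Gpn2, transcript base 1268: caaccctctggacccagggatttggagaac

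Values are log2 intensities relative to each array's 75th percentile of intensity, ± gives the SD of the 3 WT or the 4 Lck-off arrays, and a difference is the Lck-off mean less the WT mean, in log2 units. A gene is represented by its brightest probe and is said to have risen, fallen or been called when its adjusted p was under 0.05 in a limma fit to all 18231 measured genes (two-sided, Benjamini-Hochberg). Between 42.5% and 48.6% of all probes on an array were well above background, and 50.5% to 58.8% of the probes in the window were. No spot was saturated. With 7 arrays the precision of each value is limited. The single Lck probe, at chr4:129225614-129225673 on the minus strand, read 8.99, 9.02 and 8.98 in WT against 8.52, 8.83, 8.60 and 8.55 in Lck-off, a difference of -0.37 (SE 0.09, adjusted p = 0.0493 by limma; exact permutation, p = 0.0571, reached by 2 of the 35 splits, two-sided). Which segment of Lck the knockout removed is not in the labels, so this probe may lie outside it. In refits on 6 arrays Lck was called without Lck-off replicate 2 (adjusted p = 0.0149 by limma) and was not called when any other array was left out (adjusted p 0.0982 to 0.154 by limma).

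Genes near Lck changed in both directions, and a larger share of them was called than over the whole array. Of the 307 measured members, 59 (19.2%) were called, where 8.38% of all genes were. Of these, 23 rose and 36 fell, against 3.8% and 4.57% of all genes. The groups did not overlap for 105 members (34.2%), against 21.8% of all genes (9.8% higher and 12% lower in Lck-off). All 59 called members were among these, so lack of overlap, given below for single genes, holds for every called member. The median difference over the members was -0.01, the same as over all genes (-0.01), and the median size of a difference was 0.17 against 0.13. Members make up 1.68% of the measured genes and 3.86% of the called ones. Most changes were modest: 22 of the 59 were under 0.5 in size, 24 between 0.5 and 1, and 13 at least 2-fold, where 2.42% of all genes were called and changed that much.

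The count of called members moved with the arrays used. Leaving out WT replicate 1, 2 or 3 gave 38, 35 or 35, and leaving out Lck-off replicate 3 or 4 gave 39 or 37. The share of all genes called fell with it: it was 5.27% without WT replicate 2, where 11.4% of the members were called, and 5.96% without WT replicate 1, where 12.4% were. Of these, 22, 18 or 19 were lower when WT replicate 1, 2 or 3 was left out, 21 were lower when Lck-off replicate 4 was, and 14 were higher when Lck-off replicate 3 was. With each array scaled to its median in place of its 75th percentile, 31 members (10.1%) and 5.04% of all genes were called. With slide row as a block, 50 members (16.3%) and 7.15% of all genes were called. Row 1 of the slide holds 1 WT and 2 Lck-off arrays, so a fit to it has no spread within WT. Within row 2 (2 and 2) 0 members and 0 of all genes were called by limma. At an unadjusted p under 0.05 by limma there were 77 of the 307 members and 2711 of the 18231 genes.

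The share called was highest next to Lck. Of 53 measured members within 1 Mb on either side, 18 (34%) were called, of 7 between 1 and 2 Mb 1 was, of 123 between 2 and 5 Mb 22 (17.9%) were, and of 123 between 5 and 10 Mb 18 (14.6%) were. Beyond the window, 37 of 230 genes (16.1%) between 10 and 20 Mb were called. Over chromosome 4 outside the window it was 81 of 829 (9.77%), and over all other chromosomes 1360 of 16939 (8.03%). Position could not be assigned to 1 of the 307 members, whose brightest probe has no coordinate. The counts are of array names, and some names share a place. For example, 5830469G19Rik and a noncoding transcript named by its interval, 273.6 and 273.4 kb from Lck, were both called higher. No test was made of these shares, since neighbouring genes are not independent samples.

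The sides of Lck differed in their counts. Towards higher coordinates, away from the centromere, 44 of 188 members (23.4%) were called, and towards lower coordinates 15 of 118 (12.7%). Between 2 and 5 Mb the counts were 20 of 75 on the higher side and 2 of 48 on the lower side. Within 1 Mb they were 12 of 29 and 6 of 24. In bins of 2.5 Mb the share was 34.1%, 27.9%, 20% and 7.69% going up from Lck, and 23.3%, 2.27%, 4 of 21 genes and 13.0% going down.

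**Figure D1:**
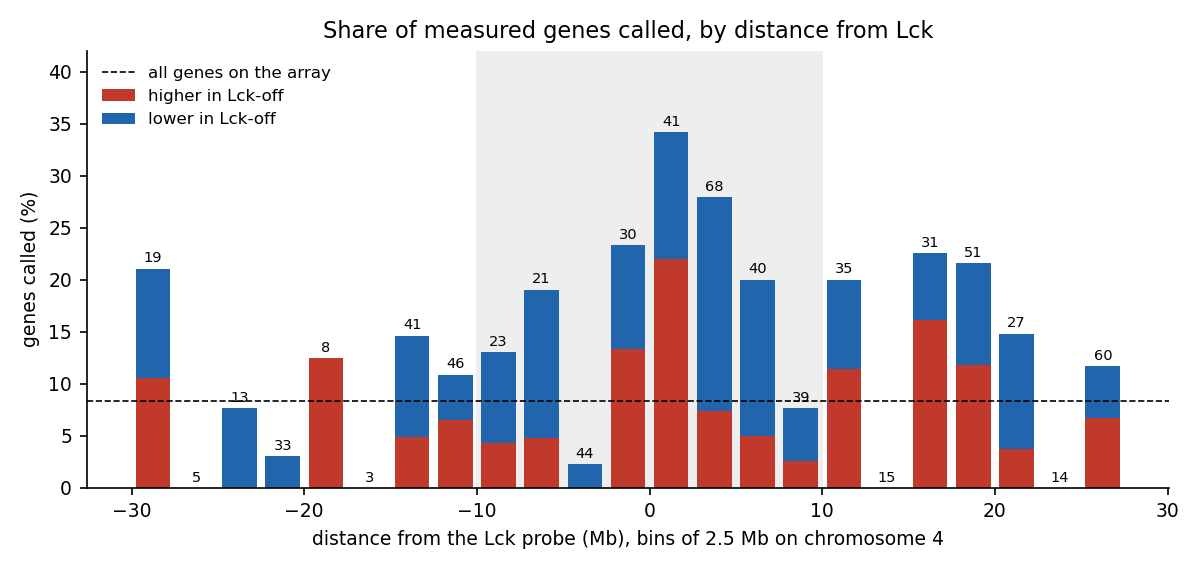
Share of measured genes called (%, y axis) in bins of 2.5 Mb along chromosome 4, by distance from the Lck probe (Mb, x axis). Red is higher and blue lower in Lck-off, the number over each bar is the genes measured, the grey band is the window of 10 Mb on each side and the dashed line is the 8.38% of all genes; the tallest bars in the window lie just above Lck, and bins beyond the window at 15 to 20 Mb also stand above the line.

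The share called was above that of all genes at every brightness. With all genes split into 3 equal parts by mean level, 14.7%, 19.4% and 22.8% of the members in the dimmest, middle and brightest were called, against 7.32%, 9.91% and 7.9% of all genes.

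The immediate neighbours of Lck were nearly all called, with rises and falls side by side. Within 0.1 Mb of the Lck probe 9 of 11 measured members were called on their brightest probes, 6 higher and 3 lower, where 8.38% of all genes were called. Hdac1 is counted as higher and Iqcc as lower, but 2 further probes of each were called in the opposite direction, as given below. On the lower side Hdac1, a histone deacetylase 32.2 kb away, read 6.33, 6.32 and 6.33 in WT against 6.61, 6.71, 6.73 and 6.77 in Lck-off on its brightest probe, so that every Lck-off array lay above every WT array (0.38, SE 0.07, adjusted p = 0.0146 by limma). Marcksl1, an actin-binding relative of the protein kinase C substrate MARCKS, lies 32.6 kb from Lck and rose from -2.33 ± 0.13 to -1.50 ± 0.16 (0.83, SE 0.11, adjusted p = 0.00499 by limma). With normexp background correction the difference for Marcksl1 was 0.33 (adjusted p = 0.0351 by limma). Bsdc1, the next gene on that side, did not pass (0.05, adjusted p = 0.865 by limma).

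Beyond Bsdc1, Zbtb8a, a zinc finger protein gene 194 kb from Lck, had the largest fall but 1 among the called members. It read -0.08, -0.18 and -0.07 in WT against -2.81, -2.41, -2.28 and -2.13 in Lck-off. The Lck-off level was 20.3% of the WT level (-2.30, SE 0.16, adjusted p = 0.00045 by limma), and the WT and Lck-off arrays were far apart. With normexp background correction it was 39.7% (-1.33). Its neighbour Zbtb8os, 201 kb from Lck, read 4.58 ± 0.05 and 4.66 ± 0.09 and did not pass, and neither did a transcript in the same place (ENSMUST00000141235, difference 0.01, adjusted p = 0.982 by limma) or Rbbp4, the histone-binding partner of Hdac1 (-0.07, adjusted p = 0.663 by limma).

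On the higher side, 7 of the 8 measured members within 0.1 Mb were called. Fam167b, 28.6 kb from Lck, read -3.92, -4.00 and -4.48 in WT against -2.28, -2.45, -2.13 and -2.49 in Lck-off. It was well above background on 0 of 3 WT and 4 of 4 Lck-off arrays. It thus passed the filter, which asks for 3 arrays well above background, through Lck-off alone. Its adjusted p of 0.00103 by limma rests on WT readings that were not well above background. The Lck-off mean was 2.84-fold over the dimmest intensity that still counted as well above background on each WT array. With normexp background correction Fam167b was 1.33-fold higher (0.41, adjusted p = 0.0053 by limma), so 2.84-fold is not a lower bound. Eif3i, a subunit of the translation initiation factor eIF3, read 5.09, 5.02 and 5.07 in WT against 4.70, 4.71, 4.76 and 4.70 in Lck-off, 47.7 kb from Lck (-0.34, SE 0.06, adjusted p = 0.0162 by limma). Every Lck-off array lay below every WT array.

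The next 5 genes went both ways. 2510006D16Rik (now Tmem234), 60.1 kb from Lck, rose by 0.40, Dcdc2b fell by 0.37, the brightest probe of Iqcc fell by 0.74, Ccdc28b rose by 0.51 and Txlna, a syntaxin-binding protein gene, rose by 0.43. Kpna6, an importin that carries proteins into the nucleus, followed at 95.7 kb and did not pass (0.09, adjusted p = 0.553 by limma). The calls on Hdac1, Eif3i, 2510006D16Rik, Dcdc2b and Txlna were lost in 4, 4, 3, 6 and 6 of the 7 refits on 6 arrays (adjusted p up to 0.0642, 0.0628, 0.0564, 0.154 and 0.123 by limma), while Marcksl1, Fam167b, Zbtb8a and Iqcc kept theirs in all 7. Dcdc2b was not called with normexp background correction (adjusted p = 0.0652 by limma), nor Txlna with its probes averaged (0.23, adjusted p = 0.144 by limma).

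**Figure D2:**
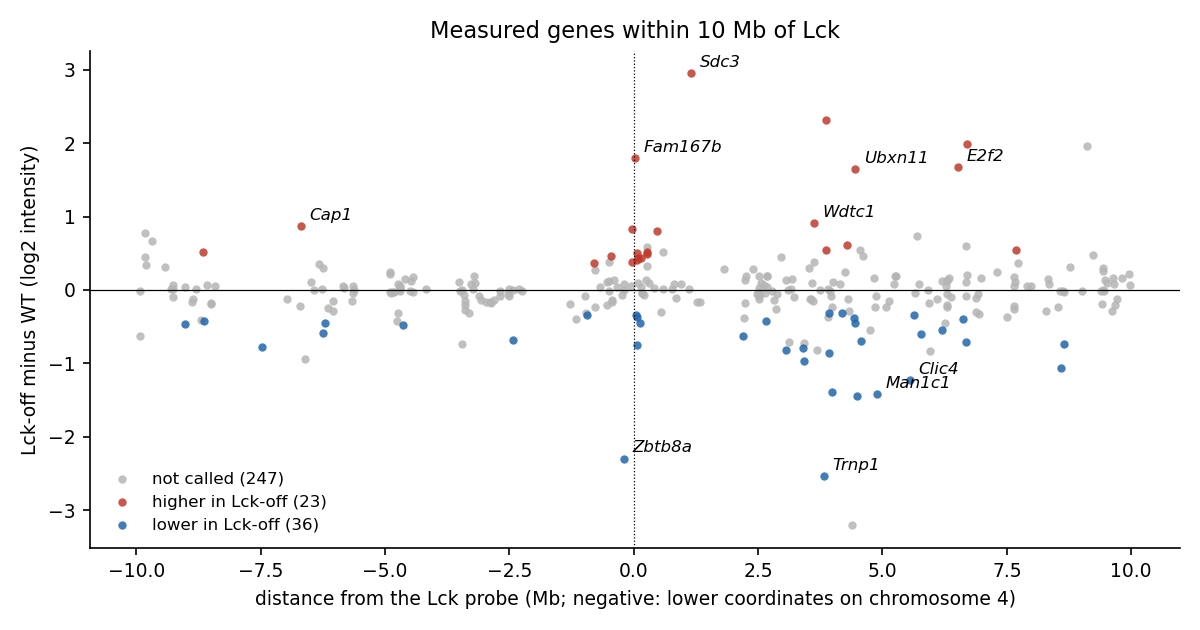
Lck-off minus WT difference (log2 intensity, y axis) of every measured member against its distance from the Lck probe (Mb, x axis). Red points (23) rose, blue points (36) fell and grey points were not called; rises and falls are mixed along the window, and the largest, Sdc3 and Trnp1, lie 1.16 and 3.82 Mb above Lck.

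The largest rise in the window among the called members was that of Sdc3, the heparan sulfate proteoglycan syndecan-3, best known from neurons, 1.16 Mb above Lck. It read -2.57, -2.45 and -2.70 in WT against 0.30, 0.59, 0.19 and 0.44 in Lck-off, a gap with no array between the groups. The difference was 2.95 (SE 0.12, 7.74-fold, adjusted p = 9.26e-05 by limma), and it lay between 2.88 and 3.02 whichever array was left out. With normexp background correction it was 1.78 (3.44-fold) and in the authors' deposited values 1.81.

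E2f2, a transcription factor that controls entry into the cell cycle, rose from 2.24, 2.27 and 2.30 in WT to 3.51, 4.19, 4.02 and 4.06 in Lck-off (1.67, SE 0.16, 3.19-fold, adjusted p = 0.00136 by limma). Ubxn11, a UBX domain protein gene, read 3.57, 3.29 and 3.36 in WT against 5.12, 5.11, 4.94 and 5.05 in Lck-off (1.65, SE 0.09, adjusted p = 0.000305 by limma). For both genes the lowest Lck-off array was more than 1 log2 unit above the highest WT array. Cap1, which recycles actin monomers, lies 6.69 Mb from Lck on the lower side and had the largest rise of the 6 called there: it read 5.54, 5.68 and 5.96 in WT against 6.70, 6.63, 6.51 and 6.56 in Lck-off (0.87, SE 0.11, adjusted p = 0.00381 by limma).

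The other members among the 12 largest rises were Wdtc1 (0.91), Bai2 (now Adgrb2, a brain adhesion receptor, 0.80), Hmgn2, a nucleosome-binding protein gene (0.61 on its brightest probe), 2610020P09Rik (0.55) and a pair of transcripts without a gene symbol. One of these, with its probe at chr4:135914696-135914755, read -1.77, -2.32 and -2.86 in WT against -0.48, -0.55, -0.01 and -0.24 in Lck-off (2.00, or 1.01 with normexp background correction). The other, ENSMUST00000163919, was well above background on 0 of 3 WT and 3 of 4 Lck-off arrays, so it passed the filter through Lck-off alone. Its Lck-off mean was 1.30-fold over the dimmest WT intensities that counted as well above background. Leaving out 1 array ended its call in 6 of 7 repeats (adjusted p up to 0.101 by limma). With normexp background correction it was 1.29-fold higher and was not called (0.37, adjusted p = 0.0826 by limma).

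The largest fall among the called members was that of Trnp1, a nuclear protein gene known from neural progenitors. It read 3.51, 2.32 and 2.37 in WT against 0.04, 0.58, -0.05 and 0.23 in Lck-off, with WT replicate 1 more than 1 log2 unit above the other WT arrays. The Lck-off level was 17.3% of the WT level (-2.53, SE 0.31, adjusted p = 0.00328 by limma). Its other probe, in another part of the gene, differed by -2.11.

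Clic4, a chloride intracellular channel gene, read 1.97, 2.35 and 2.20 in WT against 0.78, 1.02, 0.86 and 1.11 in Lck-off (-1.23, SE 0.12, adjusted p = 0.00147 by limma). The arrays of the groups stood well apart. Man1c1, a Golgi mannosidase gene, read lower in Lck-off by a difference of -1.42, or -0.48 with normexp background correction, and was well above background on 3 of 3 WT and 1 of 4 Lck-off arrays. Ccdc21 (now Cep85, a centrosome protein) fell by 1.44, Sh2d5, an SH2 domain protein gene, by 1.06, Sfn (14-3-3 sigma, a checkpoint protein of epithelial cells) by 0.85, Xkr8, which exposes phosphatidylserine on dying cells, by 0.82, and the AT-hook protein gene Ahdc1 by 0.79. The remaining members among the 12 largest falls carry no gene symbol: NAP111445-1 (-0.77) and the probes at chr4:133213793-133213852 (-1.39) and chr4:132644170-132644229 (-0.97). Calls on Ccdc21, Sh2d5, Sfn, Xkr8, NAP111445-1 and the last of these probes were lost in 3, 6, 2, 1, 1 and 6 of the 7 refits on 6 arrays (adjusted p up to 0.0674, 0.0754, 0.0637, 0.0519, 0.0504 and 0.116 by limma). With normexp background correction Ccdc21 differed by -0.61, Sh2d5 by -0.41, Xkr8 by -0.43 and the probe at chr4:133213793-133213852 by -0.82, and the probe at chr4:132644170-132644229 was not called (-0.28, adjusted p = 0.109 by limma). The ranking of the largest falls is thus that of 1 background correction.

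**Figure D3:**
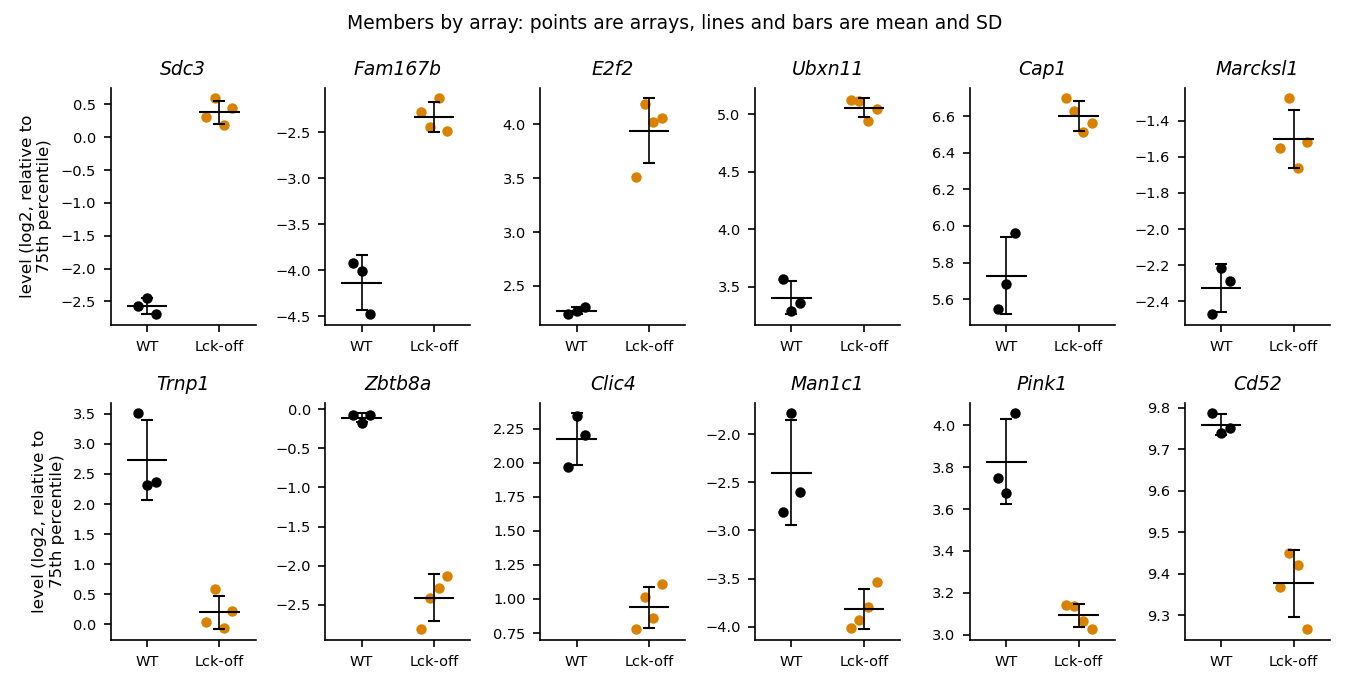
Level of 12 members on every array (log2 intensity relative to the array's 75th percentile, y axis; each panel has its own scale), WT in black and Lck-off in orange, with the mean and SD. In each panel, as in all 59 called members, the 3 WT and 4 Lck-off arrays do not overlap, and the WT arrays of Trnp1 spread from 2.32 to 3.51.

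By function, the called members were spread over all the groups examined. Called were 30.8% of immune and lymphocyte genes, 28.1% of chromatin and transcription, 33.3% of translation and 31.2% of genes known mainly outside blood cells. Lower shares were 16.7% for mitochondria and metabolism, 15% for cytoskeleton, trafficking and glycosylation and 8.33% for RNA processing and decay. The share was 17.4% in no list, 19.2% over all members and 8.38% over all genes. The lists hold 6 to 32 measured genes and not every gene of their kind, so the shares depend on which genes were listed. No list was tested. Of 13 measured genes of immune cells and lymphocytes, 1 rose (Marcksl1), 3 fell and 9 did not pass, with a median of -0.17. Cd52, a small and very abundant surface glycoprotein of lymphocytes, read 9.79, 9.74 and 9.75 in WT against 9.37, 9.45, 9.42 and 9.27 in Lck-off (-0.38, SE 0.07, adjusted p = 0.0185 by limma), and Sh3bgrl3 fell from 8.44 ± 0.02 to 7.98 ± 0.11 (adjusted p = 0.0134 by limma). The calls on Cd52 and Sh3bgrl3 were lost in 5 and 2 of the 7 refits on 6 arrays (adjusted p up to 0.0674 and 0.0543 by limma).

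Few markers of other cells were called over the same arrays. Of 8 macrophage, monocyte and neutrophil markers on the array 3 were measured and 0 were called by limma, with a summed level (in multiples of the 75th percentile) of 3.96 to 6.31 in WT against 5.15 to 6.73 in Lck-off. Their median difference was 0.31. Of 7 dendritic cell markers 5 were measured and 0 were called, with sums of 243.9 to 264.2 and 251.6 to 310.0 and a median difference of 1.07. Most of that sum is Siglech (7.92 to 8.04 in WT against 7.95 to 8.24 on the log2 scale), while H2-Aa, Cd74 and H2-Ab1 differed by 1.07, 1.12 and 1.40 and did not pass. Of 4 NK cell markers 2 were measured: Gzma, a granzyme gene, rose (2.77) and Klrd1 did not pass (-0.16), and the sums were 33.1 to 34.7 and 40.2 to 51.0. No array had the B cell marker Ms4a1 well above background, nor Alas2, Ppbp and Pf4 of red cells and platelets, nor Col3a1 and Cdh5 of stroma. Of the other lists, 0 of 2 CD4 T cell markers and 0 of 2 measured markers each of B cells, red cells and platelets, and stroma were called by limma. The red cell and platelet markers had a median difference of 1.15, with sums of 0.16 to 1.83 in WT against 0.85 to 3.29 in Lck-off. The medians for CD4 T cells, B cells and stroma were 0.03, -0.05 and 0.05. The part of other cells in the changes of the members was not tested.

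Of 32 measured genes of chromatin and transcription, 4 rose, 5 fell and 23 did not pass, with a median of 0.03. Beside Zbtb8a, E2f2 and Hmgn2, the zinc finger protein gene Zfp593 went from 3.49 ± 0.08 to 2.80 ± 0.08 (-0.69, adjusted p = 0.00239 by limma). Of 24 genes of RNA processing and decay 2 (8.33%) were called, near the 8.38% of all genes: Nudc, which is best known as a nuclear movement protein gene, rose by 0.54 (adjusted p = 0.0167 by limma, and lost in 3 of the 7 refits on 6 arrays, up to 0.0674), and Pnrc2, which links RNA decay to decapping, differed by -0.55 (adjusted p = 0.0095 by limma). Their median was 0.00.

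Of 18 measured genes of mitochondria and metabolism 0 rose and 3 fell by limma, with a median of -0.21. Pink1, the kinase that marks damaged mitochondria, read 3.75, 3.67 and 4.06 in WT against 3.14, 3.13, 3.06 and 3.02 in Lck-off (-0.73, SE 0.10, adjusted p = 0.00586 by limma), so that the arrays of the groups did not overlap. Mecr, of mitochondrial fatty acid synthesis, fell by 0.63, and Ctps, which makes CTP for nucleic acid synthesis, by 0.47. Of 6 translation genes 2 fell, Eif3i and Rps6ka1 (-0.32), the ERK-activated kinase RSK1, whose call was lost in 6 of the 7 refits on 6 arrays (adjusted p up to 0.126 by limma).

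Of 20 genes of cytoskeleton, trafficking and glycosylation, Cap1 and Txlna rose, and Macf1, which links microtubules to actin, fell by 0.45 (adjusted p = 0.00831 by limma). Of 16 measured genes known mainly outside blood cells, 3 rose (Sdc3, Bai2 and the synaptic gene Rims3, by 0.51) and 2 fell (Sfn and Trnp1). The other 178 measured members, in none of these groups, held 12 rises and 19 falls. Among the falls were Pabpc4, a poly(A)-binding protein gene (-0.58, adjusted p = 0.0208 by limma), and Tlr12, a Toll-like receptor gene (-0.34, adjusted p = 0.0300 by limma). Interval-named noncoding transcripts were 52 of the measured members, and 6 of them (11.5%) were called, against 4.48% of the 2453 such transcripts measured over the array.

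Probes of the same gene disagreed in a larger share of pairs near Lck than over the array. Over all kept probes of the array, 7.33% were called one by one. Of the members, 112 had at least 2 probes measured, which gave 174 pairs of a further probe with the brightest probe of its gene. In a limma fit to the difference within each pair over all 7347 pairs of the array, 46 pairs (0.626%) were called, and 10 of them, in 8 genes, were members (5.75% of the member pairs). Members thus held 2.37% of the pairs and 21.7% of the called ones. The comparison within a pair removes any scaling of the array. No test of this share was made.

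The share was 11.4% (5 of 44 pairs) within 1 Mb of Lck, 5.88% (4 of 68) from 1 to 5 Mb and 1.61% (1 of 62) from 5 to 10 Mb. On the rest of chromosome 4 it was 1.18% (4 of 339) and on all other chromosomes 0.455% (31 of 6806). Probes of a member differed from each other by over 0.5 in 18.4% of pairs, against 7.84% over the array. Probe pairs went the same way in 71.8% of member pairs and in 69.5% of all pairs. The count of 10 became 6, 6 or 5 when WT replicate 1, 2 or 3 was left out, 6 when Lck-off replicate 3 or 4 was, and 6 when the slide row was a block. Called pairs over the whole array numbered 26, 21 and 15 when WT replicate 1, 2 or 3 was left out, 20 and 22 when Lck-off replicate 3 or 4 was, and 24 when the slide row was a block. With normexp background correction 16 member pairs and 91 pairs (1.24%) over the array were called.

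**Figure D4:**
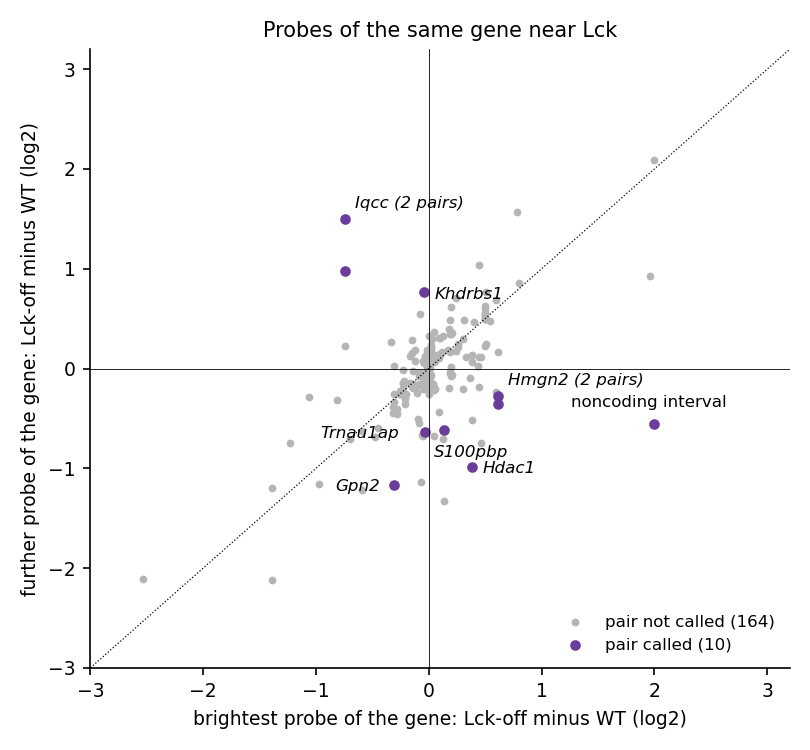
Lck-off minus WT difference (log2) of a further probe of a gene (y axis) against that of its brightest probe (x axis), for the 174 member pairs. The dotted line marks equal differences; the 10 called pairs (purple) lie off it, and 8 of them have opposite signs on the 2 probes.

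Iqcc, an IQ motif protein gene 67.2 kb from Lck, gave the smallest p of the member pairs. Its brightest probe, starting at transcript base 2081, read 2.56, 2.48 and 2.36 in WT against 1.90, 1.69, 1.63 and 1.67 in Lck-off. The probe at base 2324, 237 bases away on the chromosome, read -0.18, 0.03 and -0.09 in WT against 1.60, 1.37, 1.40 and 1.31 in Lck-off. The first was lower and the second higher on every Lck-off array. Their differences were -0.74 and 1.50, and the gap between them 2.24 (SE 0.10, adjusted p = 0.000219 by limma). The probe at base 125 sided with the second, with a difference of 0.98 and a gap of 1.72 to the brightest (adjusted p = 0.000655 by limma). With all probes averaged, Iqcc was higher in Lck-off by 0.58.

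Hdac1 showed the same within one short stretch at chr4:129193374-129193775. The probe at transcript base 1885 rose by 0.38, as given above. The probe at base 1732, 153 bases away, read 4.70, 4.66 and 4.82 in WT against 3.70, 3.83, 3.73 and 3.69 in Lck-off (-0.99, adjusted p = 0.000806 by limma), and the one at base 1543 differed by -0.51 (adjusted p = 0.0469 by limma). On the probe at base 1732 every Lck-off array lay below every WT array. The gap to the brightest probe was -1.37 (SE 0.09, adjusted p = 0.00105 by limma) for base 1732 and -0.90 (SE 0.14, adjusted p = 0.0603 by limma) for base 1543. The mean of the 3 probes was lower in Lck-off by a difference of -0.37, so the direction for Hdac1 depends on the probe.

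Gpn2, a GPN-loop GTPase gene 3.92 Mb from Lck, kept its direction on all 3 probes but not its size. The probe at base 1123 read 1.44, 1.63 and 1.67 in WT against 0.42, 0.40, 0.39 and 0.45 in Lck-off (-1.17), while those at bases 1268 and 825 differed by -0.31 and -0.34, and the mean of all 3 by -0.60. The middle probe thus stood apart from both of its neighbours (gap to the brightest -0.86, adjusted p = 0.0081 by limma). The call on Gpn2 by its brightest probe was lost in all 7 refits on 6 arrays (adjusted p 0.0648 to 0.108 by limma).

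Hmgn2 rose by 0.61 on its brightest probe (4.15, 4.33 and 4.26 in WT against 4.77, 4.91, 4.80 and 4.96). Its 3 other probes, nearer the start of the transcript, differed by -0.27, 0.16 and -0.36, and none of these passed alone. With its 4 probes averaged Hmgn2 did not pass (0.04, adjusted p = 0.867 by limma). The gaps of -0.89 and -0.97 were called (adjusted p = 0.00626 and 0.00964 by limma).

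**Figure D5:**
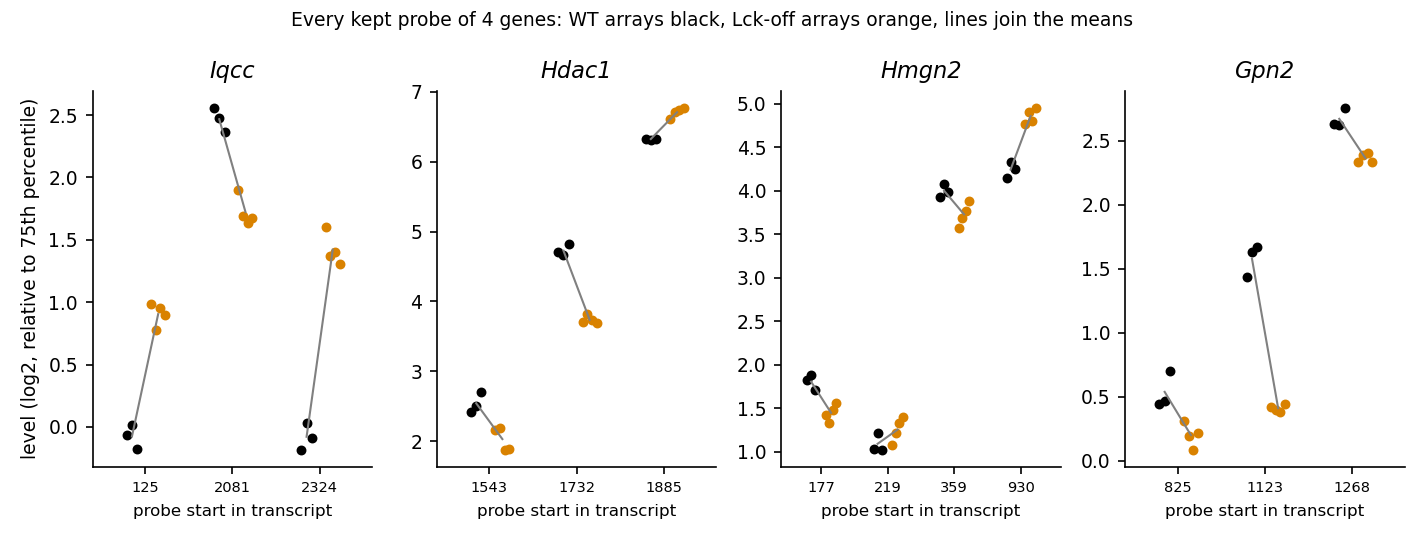
Level of every kept probe of Iqcc, Hdac1, Hmgn2 and Gpn2 on each array (log2 intensity relative to the 75th percentile, y axis), by the probe's start in the transcript (bases, x axis); WT is black, Lck-off orange and lines join the group means. In Iqcc and Hdac1 the lines slope both ways within a gene, and in Gpn2 the probe at base 1123 drops by 1.17 while its neighbours drop by 0.31 and 0.34.

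In the other called pairs the brightest probe did not pass while a further probe did, except in 1 noncoding transcript. Khdrbs1, the RNA-binding protein Sam68, differed by -0.04 on its brightest probe and by 0.76 on a probe of another transcript 11754 bases away. S100pbp differed by 0.14 and -0.61, with another probe at -1.32. Trnau1ap, which takes part in selenocysteine incorporation, differed by -0.03 and -0.63. The transcript with its brightest probe at chr4:135914696-135914755 rose by 2.00 there and by 2.09 on the next probe, while a probe at chr4:135913320-135913379 differed by -0.56 and was well above background on 2 of 3 WT and 2 of 4 Lck-off arrays. Of the 10 called pairs, 8 had both probes designed on the same accession and 8 had opposite signs. The 10 member pairs whose probes overlap in sequence differed by 0.01 to 0.45, and 0 of them were called by limma.

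Of the 59 called members, 35 had a single measured probe, so their change has no second probe to set beside it. Sdc3 was among these, as were Zbtb8a, E2f2, Ubxn11, Cap1, Fam167b and Marcksl1. Of the 24 with further probes, 17 had all probes in the same direction and 12 had a further probe called in that direction. For Trnp1, Bai2, Ccdc28b, 2510006D16Rik, Nipal3, a magnesium transporter family gene, Nudc, Sh3bgrl3 and Zfp593 all measured probes were called the same way, as were those of the transcript at chr4:133213793-133213852 (-1.20 to -2.12). The probes of Zfp593, whose starts lie 6 bases apart, and a pair of Nipal3 probes, 28 bases apart, overlap, so they read nearly or partly the same bases. In Nipal3 the probes differed by -0.60 to -1.22, and in Bai2 by 0.80 and 0.86. Only Hdac1 and Iqcc had a further probe called in the opposite direction.

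The largest difference of any member was not called. Gm13060, a transcript gene 4.39 Mb from Lck, read 0.07, -0.42 and -0.55 in WT against -0.77, -5.97, -6.20 and -1.08 in Lck-off, so that 2 Lck-off arrays lay near WT and 2 far below (-3.21, SE 1.48, adjusted p = 0.271 by limma). The low ones, Lck-off replicates 2 and 3, are those of row 1 of the slide, where WT replicate 3 read -0.55. Pla2g2d, a secreted phospholipase gene, was well above background on 0 of 3 WT and 4 of 4 Lck-off arrays and did not pass on its brightest probe (1.96, adjusted p = 0.0864 by limma), while its other probe, above background on 0 of 3 and 3 of 4, did (0.93, adjusted p = 0.0338 by limma over all probes). The probes of Pla2g2d thus passed the filter through Lck-off alone. Gm13060 and Pla2g2d were chosen after their values were seen.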

How the data were processed

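Total RNA from sorted cells was labelled with Cy3 and measured on 7 single-colour Agilent arrays on 1 slide. The authors ran Feature Extraction 10.7.3.1, per the file headers, which gave a background-subtracted processed intensity for each spot, uncorrected mean and background intensities, spot flags and mm9 probe positions. A second deposited set of values appears from its range to be log2 intensity. It was an alternative only; the submitters' processing notes name limma, and its steps are not given.

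Values here are log2 intensity minus each array's 75th percentile over non-control spots. Non-uniform spots were dropped, replicate spots averaged, and probes kept if well above background on 3 or more of the 7 arrays; the brightest kept probe stood for a gene name. The Lck-off and WT groups were compared with limma 3.58.1 (R 4.3.3, version 1.17.8 of data.table), two-sided, with Benjamini-Hochberg adjustment over all genes. The method was tested on simulated data, drawn with independent noise at each gene's own spread. Of added changes of 0.5, 1, 2 and 3 log2 units, each made in 50 of 18230 genes, 32%, 82%, 94% and 98% were called, and 4.4% of the calls were false. The simulated data gave 160 calls and the real data 1527. The adjustment depends on how many genes change, so these rates may not hold for the real data. A gene that did not pass may thus have changed by a small amount. Agreement was tested by limma on each further probe minus the brightest one, adjusted over all such pairs. Of the measured members, 211 (68.7%) were matched to a current symbol through RefSeq gene names of GRCm38.p6, whose coordinates were not used. Distances run from the midpoint of a probe to the nearer end of the Lck probe.

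Named were the 12 largest rises and falls among called members, the 5 nearest measured members on each side of Lck, members with a called pair, and up to 4 called genes by p in each function list; others were named for their place or after their values were seen. The members and lists were chosen with earlier results of these data known. Alternatives covered background correction, scaling, the dim-probe filter, the probe that stands for a gene, moderation, array weights, the slide row, the replicate number, the span around Lck and each array left out. Some marker genes of other cells are not reported here by name.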

Additional observations from a re-analysis of the deposited data

Results flagged for a closer look

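In 2 of 48 groups of 4 Lck-off arrays tested over the named members and Lck, 1 array stood apart from the rest by more than Dixon's critical value, which chance alone gives in about 1 of 20 groups. For Wdtc1, Lck-off replicate 1 read 2.25 and the other Lck-off arrays 1.97 to 1.98, all above the WT arrays. For Eif3i, Lck-off replicate 3 read 4.76 and the others 4.70 to 4.71, all below the WT arrays.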

How the results depend on the processing

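Genes called numbered 1527 over the array and 59 among the members (23 higher, 36 lower), with 1874 probes and 10 member probe pairs. Median scaling gave 918, 31 (13, 18) and 1086, and Lck at -0.39. Without a filter on dim probes they were 717, 20 (10, 10), 712 and 3. The replicate block gave 374, 9 (5, 4), 366 and 0, and Lck at -0.35. Same-numbered WT and Lck-off arrays correlated in their deviations at 0.106, 0.049 and -0.00831, and arrays of unlike number at -0.174 to 0.138. So few and weak correlations cannot settle whether the numbers pair the samples. Row 1 of the slide alone gave 105, 4 (2, 2), 89 and 0, with Lck at -0.27, and row 2 alone gave 0, 0 (0, 0), 10 and 0 by limma, with Lck at -0.47 and 2711 genes at an unadjusted p under 0.05. The slide row as a block gave 6 pairs and Lck at -0.39. Normexp correction and the deposited value table each gave 16 member pairs, with 91 and 99 over the array against 46. Under normexp 12 called differences of named members shrank by over 1.5 times, among them Sdc3 (2.95 to 1.78), Fam167b (1.79 to 0.41) and Zbtb8a (-2.30 to -1.33), and ENSMUST00000163919, Dcdc2b and the noncoding probe at chr4:132644170-132644229 lost their calls. In the deposited table Gpn2 lost its call (-0.24, adjusted p = 0.0523 by limma), and with probes averaged Hmgn2, Txlna and that noncoding probe lost theirs. Leaving out 1 array gave 960 to 1405 genes, 35 to 50 members (14 to 21 higher, 18 to 29 lower), 1133 to 1678 probes, 5 to 7 pairs, and Lck at -0.44 to -0.34. Lck (-0.37) was not called with the filter at 1 array either. The members' share called (19.3% of those with a position) was 22.4% within 5 Mb, 31.7% within 2 Mb and 34.0% within 1 Mb.

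With all probes of a gene averaged the sign turned for Hdac1 (-0.37), Iqcc (0.58), Khdrbs1 (0.36) and S100pbp (-0.60). The other sign changes were in members that were not called. ENSMUST00000141235 read -0.00079 with quantile normalization, -0.012 with median scaling, -0.028 with the replicate block, -0.056 in row 1 and -0.065 to 0.047 with 1 array left out. Bsdc1 read -0.035 with the block, -0.087 in row 1 and -0.035 to 0.0999 with 1 array left out. S100pbp read -0.11 in row 1, Khdrbs1 0.00079 in row 2, and Trnau1ap -0.084 to 0.0024 with 1 array left out. The causes were not tested. The number of arrays and, for dim probes, signal over background limit these values.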
